A study of Mus musculus with 8 samples.

Results

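Axon guidance genes encode the cues that steer growing axons and the receptors that read them. Here they were compared between Spp1 knockout and wild-type astrocyte cultures in a bulk RNA-seq study. Spp1 encodes osteopontin, a secreted matrix phosphoprotein that also acts as a cytokine. The genes were taken by name from the authors' deposited table of changed genes: semaphorins, plexins, neuropilins, ephrins and Eph receptors, Slit and Robo genes, netrins and their receptors, repulsive guidance molecules, SLITRK, FLRT, LINGO and Nogo receptor genes, collapsin response mediators and the reelin genes. The table listed 43 of them among 3624 rows. The cultures were astrocytes from the retinas and optic nerves of pups of postnatal days 1 to 3, grown in medium with 10% serum, with 4 samples from wild-type C57BL/6 mice and 4 from Spp1-/- mice of strain B6.129S6(Cg)-Spp1tm1Blh/J. Whether samples of the same genotype were separate litters or cultures is not stated in the labels, so the spread behind each p-value could be technical. Only the comparison between genotypes was analysed, with no values per sample. Sequencing depth is therefore unknown, and the error given is the deposited standard error (SE) of each fold change over the 8 samples.

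Guidance cues act at the growth cone, the moving tip of an axon. Secreted or membrane-bound ligands such as semaphorins, ephrins, Slits and netrins bind plexins and neuropilins, Eph receptors, Robo receptors, and DCC or UNC5 receptors, and most of these signals meet at the actin skeleton. In the optic nerve, astrocytes and their precursors line the path of retinal ganglion cell axons, netrin-1 at the optic disc guides those axons out of the eye, and Slits and ephrins shape their course in the nerve and the brain. The same molecules also act outside neurons, in blood vessels, immune cells and glia.

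Of the 43 guidance genes in the authors' deposited table, 28 were lower in the knockout and 15 were higher, and their median log2 fold change was -0.95. Of all 3624 rows, 45.1% were lower and 54.9% higher, and the median over all rows was 0.66. No row had a log2 fold change smaller than 0.58 in size, so a median passes over that gap. The distance between these medians is therefore partly made by the limit of the table. By size, 29 of the 43 members had a log2 fold change of 1 or more in either direction, against 58.0% of all rows. Of these 29, 20 were lower and 9 higher, a lower share of 69.0%. The lower share was 38.8% among the 2101 rows past the same limit. As shares of all 3624 rows, 22.5% were lower and 35.5% higher by at least 1. The share of lower members was 65.1% over all 43. It was 57.1% among the 28 members of the semaphorin, ephrin, Slit and netrin families alone, 16 lower and 12 higher. The SLITRK, LINGO, Nogo receptor and reelin genes held 11 lower members and 0 higher. The remaining members were Flrt1, Flrt3 and Plxdc1, all higher, and Ntng1, which was lower. These counts describe the table and were not tested as a set.

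Every listed gene had an adjusted p of at most 0.0499 from the authors' test and a log2 fold change of 0.58 or more in size. Fold changes are knockout over wild type, a direction read from the negative value of the deleted gene, since the table does not state it. Spp1 itself stood at -5.90 ± 0.11 (SE) in the authors' deposited table. An implied mean is a group's mean normalized count worked out from the deposited overall mean and fold change, with the groups taken as equal in size. GENCODE M21 on GRCm38 annotates 102 genes of these families, of which 42.2% were listed, against 16.0% of all protein-coding genes. The 59 others fell outside one of these limits or were never tested, so nothing is read from their absence.

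**Figure D1:**
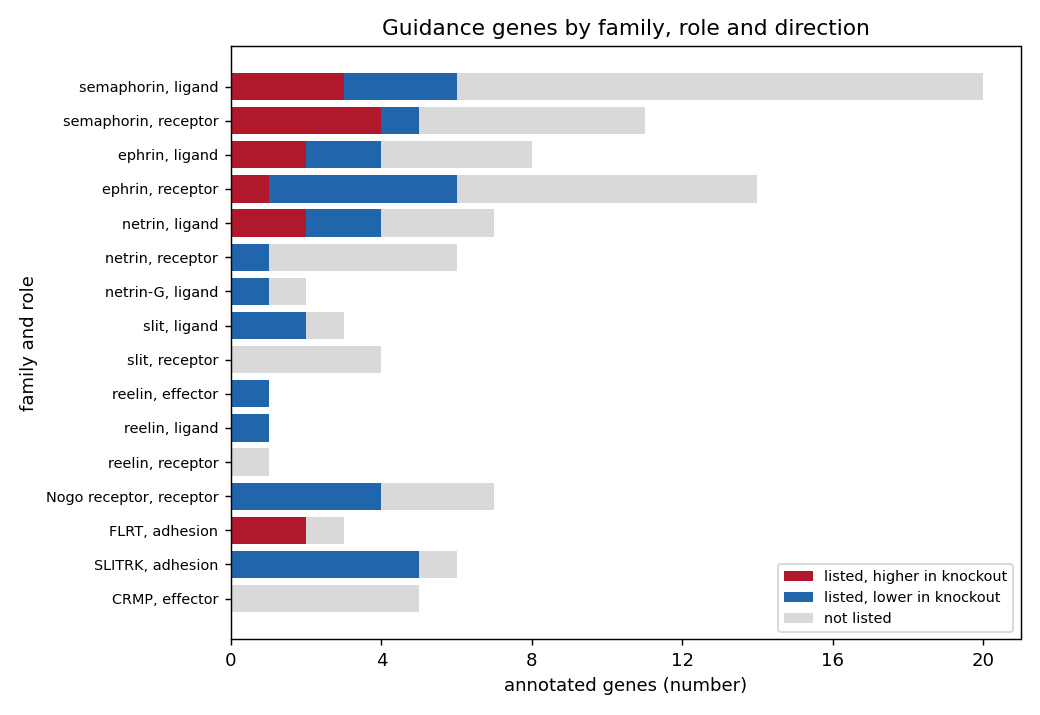
Number of annotated guidance genes (x axis) in each family and role (y axis), split into those listed higher in the knockout, listed lower, and not listed. Semaphorin receptors were 4 higher and 1 lower, Eph receptors 1 higher and 5 lower, and 5 of 6 SLITRK genes were listed, all lower.

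Ligands and receptors each had more lower than higher members when all families were pooled. Of 18 listed ligands 11 were lower and 7 higher, with a median log2 fold change of -0.77, and of 16 listed receptors 11 were lower and 5 higher, with a median of -1.03. The receptors counted include 3 LINGO genes, all lower. Within families the counts differed in direction. Semaphorin ligands were divided 3 to 3 while their receptors were 4 higher to 1 lower. Ephrins were divided 2 to 2 while Eph receptors were 1 higher to 5 lower. The Slit family had 2 of 3 ligands listed, both lower, and 0 of 4 Robo receptors. The netrin family, which as grouped here takes in the repulsive guidance molecules and Draxin, had 4 of 7 ligands listed. The netrins Ntn1 and Ntn3 were lower, and Rgmb and Draxin, which are not netrins, were higher. Of its 6 receptors 1 was listed, which was lower. The difference between ligands and receptors within a family was not tested.

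**Figure D2:**
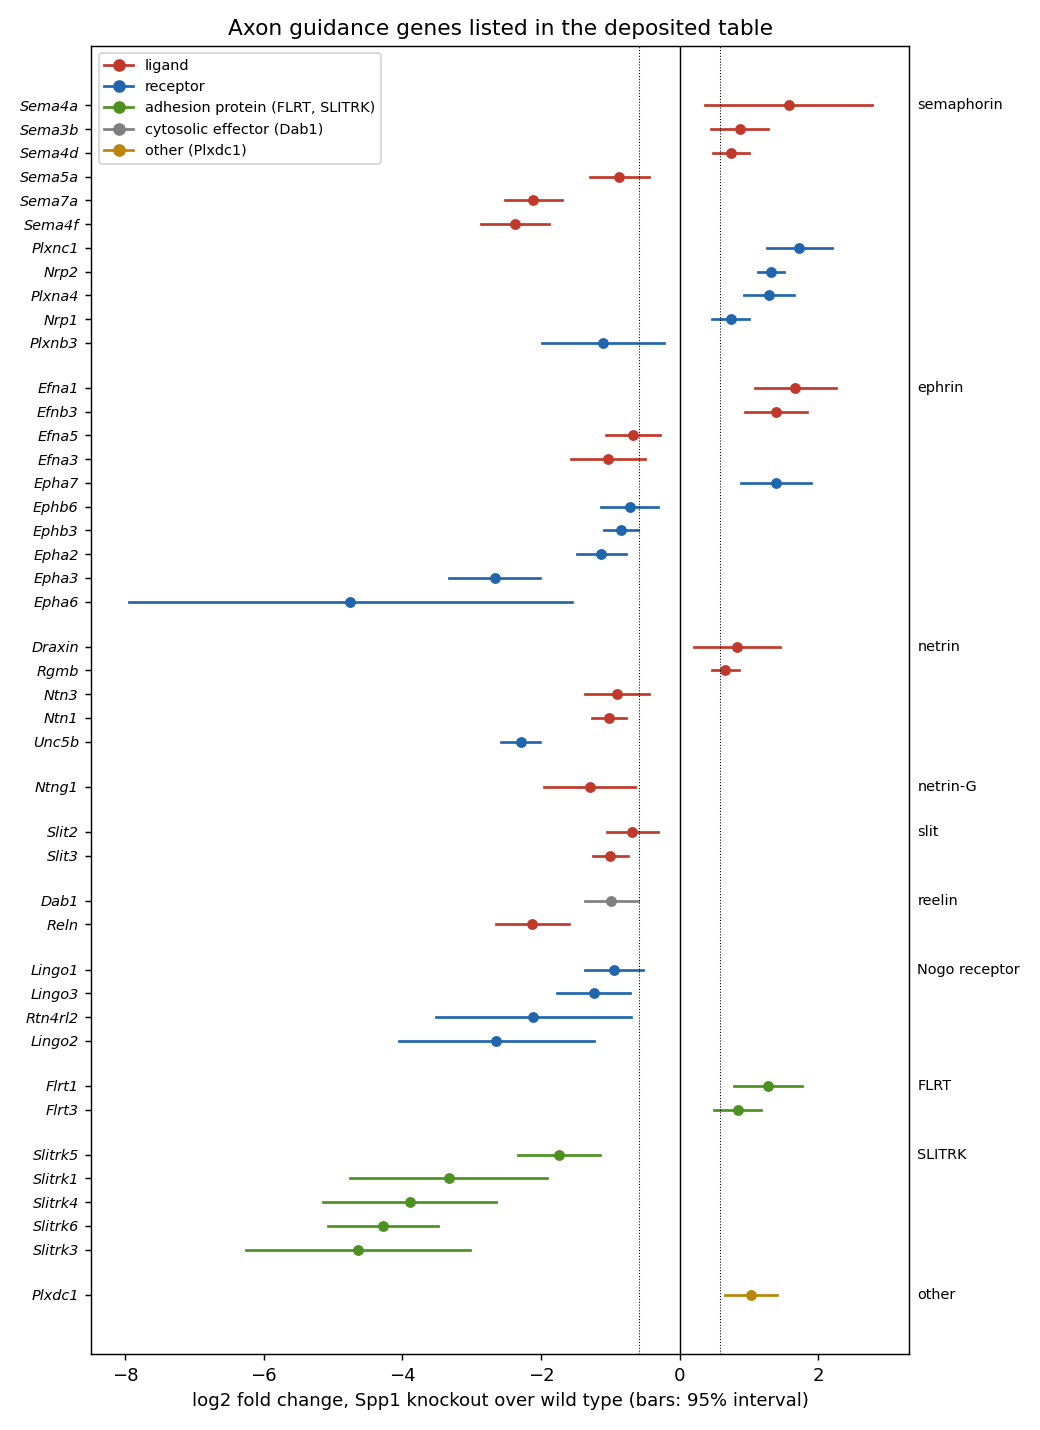
Log2 fold change of each of the 43 listed guidance genes, knockout over wild type (x axis), with its 95% interval from the deposited standard error, by family (right) and coloured by role. Dotted lines mark the smallest absolute fold change of the table, 0.58. The 5 SLITRK genes lie between -4.63 and -1.74, and Plxnc1 has the largest rise at 1.73.

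Promoters are printed for 2 sets of members that the results turn on: the SLITRK genes, which fell together, and Sema7a and Plxnc1, a ligand and its receptor that moved in opposite directions. Each is 300 bases around the start of transcription from RefSeq on GRCm38.p6, 5′ to 3′ on the gene's strand, in lower case, with matches to the SOX core, AP-1, STAT and IRF-type motifs below in capitals. Matches to the E-box, present in all of them but Slitrk5, are left in lower case. They lie at chr14:108914190-108914489 (Slitrk1, minus strand), chr3:73057017-73057316 (Slitrk3, minus), chr14:111675777-111676076 (Slitrk5, plus), chr14:110755100-110755399 (Slitrk6, minus), chr9:57939862-57940161 (Sema7a, plus) and chr10:94944796-94945095 (Plxnc1, minus).
Slitrk1: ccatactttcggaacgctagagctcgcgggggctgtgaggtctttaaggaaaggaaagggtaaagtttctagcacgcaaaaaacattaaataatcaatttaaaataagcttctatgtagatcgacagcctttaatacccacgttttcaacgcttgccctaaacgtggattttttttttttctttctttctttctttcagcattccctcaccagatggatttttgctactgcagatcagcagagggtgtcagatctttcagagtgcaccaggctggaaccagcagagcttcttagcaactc
Slitrk3: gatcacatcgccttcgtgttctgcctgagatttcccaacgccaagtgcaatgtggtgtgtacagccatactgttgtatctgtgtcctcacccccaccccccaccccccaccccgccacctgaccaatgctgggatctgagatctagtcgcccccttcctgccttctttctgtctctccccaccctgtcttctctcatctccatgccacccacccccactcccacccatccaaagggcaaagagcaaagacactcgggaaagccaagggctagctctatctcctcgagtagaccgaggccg
Slitrk5: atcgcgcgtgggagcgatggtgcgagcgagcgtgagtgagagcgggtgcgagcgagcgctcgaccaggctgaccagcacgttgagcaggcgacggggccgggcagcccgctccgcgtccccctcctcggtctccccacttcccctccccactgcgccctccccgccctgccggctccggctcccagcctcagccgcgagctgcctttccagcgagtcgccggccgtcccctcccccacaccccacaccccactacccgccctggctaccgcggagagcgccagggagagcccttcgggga
Slitrk6: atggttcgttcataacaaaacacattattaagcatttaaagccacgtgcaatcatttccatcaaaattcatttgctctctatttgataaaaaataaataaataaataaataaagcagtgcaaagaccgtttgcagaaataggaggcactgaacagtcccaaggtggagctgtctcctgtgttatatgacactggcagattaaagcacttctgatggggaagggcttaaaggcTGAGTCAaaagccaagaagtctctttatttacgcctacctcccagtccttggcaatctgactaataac
Sema7a: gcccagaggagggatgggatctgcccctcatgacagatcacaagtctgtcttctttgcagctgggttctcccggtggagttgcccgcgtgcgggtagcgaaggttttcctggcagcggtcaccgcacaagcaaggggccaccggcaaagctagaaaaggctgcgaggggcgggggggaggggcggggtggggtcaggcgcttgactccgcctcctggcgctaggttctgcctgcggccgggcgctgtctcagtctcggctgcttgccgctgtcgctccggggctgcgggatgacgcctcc
Plxnc1: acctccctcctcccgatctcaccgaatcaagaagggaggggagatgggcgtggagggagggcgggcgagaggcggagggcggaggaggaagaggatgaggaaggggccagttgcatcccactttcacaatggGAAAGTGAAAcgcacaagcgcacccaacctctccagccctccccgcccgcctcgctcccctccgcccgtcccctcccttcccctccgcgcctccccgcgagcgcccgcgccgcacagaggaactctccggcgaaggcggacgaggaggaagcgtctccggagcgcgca

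The SLITRK promoters had little in common by base composition, with a GC content of 42.3% in Slitrk1, 58.0% in Slitrk3, 74.3% in Slitrk5 and 38.3% in Slitrk6. Sema7a and Plxnc1 had 67.3% and 69.0%. The table matched 36 of the 43 members, and Efnb3, Flrt1, Ntn1, Plxdc1, Plxna4, Sema3b and Slitrk4 had no entry. The first promoter of each gene was searched on both strands for 5 motifs, and matches of different motifs did not overlap in the members. The SOX core ACAAAG was found in 3 of 36 member promoters (Draxin, Plxnb3 and Sema4f) and in 18.7% of all 27025 promoters. AP-1 (TGANTCA) was found in 2 members, Slitrk6 and Sema4d, and in 7.93% of all. STAT (TTCNNNGAA) was found in 2 members, Efna3 and Epha3, and in 8.47% of all. The IRF-type motif was found in 1 member, Plxnc1, and in 3.49% of all, and the E-box CANNTG in 20 members and in 72.1% of all. A match is a stretch of letters in this window and was not tied to binding.

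Semaphorin ligands, which signal through plexins, moved both ways in the knockout. Sema7a is tethered to the membrane by a lipid anchor and binds plexin C1 and integrins. The implied mean dropped from 2369 normalized counts in wild type to 549 in the knockout, with a log2 fold change of -2.11 ± 0.21 (SE) in the authors' deposited table (adjusted p = 1.31e-22). Sema4f, a transmembrane semaphorin, fell by 2.38 ± 0.25 (SE) in the authors' deposited table, from an implied 182 to 35.1. Sema5a, a transmembrane semaphorin with thrombospondin repeats, fell by 0.87 ± 0.22 (SE) in the authors' deposited table. The higher ligands in the authors' deposited table were Sema4a, at 1.58 ± 0.61 (SE), the secreted neuropilin ligand Sema3b, at 0.87 ± 0.21 (SE), and Sema4d, which binds plexin B1, at 0.74 ± 0.13 (SE). Sema3b was the only listed gene of the 7 class 3 semaphorins, the secreted group that acts through neuropilins. Sema4a had an implied mean of only 24.5 in wild type and 73.2 in the knockout, and the 95% interval of its fold change ran from 0.37 to 2.78.

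Semaphorin receptors were mostly higher. Plxnc1, the receptor for Sema7a, had the largest rise of all 43 members, from an implied 462 in wild type to 1533 in the knockout, 1.73 ± 0.24 (SE) on the log2 scale in the authors' deposited table (adjusted p = 1.91e-11). Both neuropilins, the co-receptors that bind class 3 semaphorins and vascular endothelial growth factor, rose. Nrp2 went from an implied 2804 to 7030, a log2 fold change of 1.33 ± 0.10 (SE) in the authors' deposited table (adjusted p = 2.89e-41). Nrp1 went from an implied 3363 to 5613, at 0.74 ± 0.14 (SE) in the authors' deposited table. Plxna4, which pairs with neuropilins, stood at 1.29 ± 0.18 (SE) in the authors' deposited table. It shares its locus with annotated antisense genes, and no source used here gives the strand setting of the counting, so reads of the opposite strands may not have been told apart. Overlaps of this kind are not given here for the other members, for which the strand setting is equally unknown. Plxnb3, which binds Sema5a, was the only lower receptor here, at -1.10 ± 0.45 (SE), with the 95% interval ending at -0.22 and an adjusted p = 0.0478 in the authors' deposited table. Kdr, the endothelial growth factor receptor that works with neuropilins and is no member, rose by 2.08 ± 0.18 (SE) in the authors' deposited table. Of 10 endothelial markers 3 were listed, Kdr and Cdh5 higher and Flt1 lower. The part of other cell types in these rises was not tested.

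Among macrophage markers, 10 of 10 were higher in the knockout beside the semaphorin receptors, with log2 fold changes from 1.42 to 4.36 and a summed implied mean of 8471 in wild type and 48005 in the knockout. Mrc1, Itgam, Adgre1 and Cx3cr1 had the smallest adjusted p-values of that list, and in the authors' deposited table these stood at 4.36, 2.7, 2.85 and 2.29 on the log2 scale. Markers of leptomeningeal fibroblasts were listed for 6 of 10 genes, all higher, from 0.70 to 6.73, with a summed implied mean of 36884 and 78722. In bulk RNA a change in the number of cells of a type and a change in RNA per cell cannot be told apart. Whether Plxnc1, Nrp1, Nrp2 and Plxna4 rose within one cell type was not tested.

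Ephrins are membrane-bound ligands, class A on a lipid anchor and class B with a transmembrane stretch, and both classes signal on direct contact. Efna1 went from an implied 41.2 in wild type to 131 in the knockout, a log2 fold change of 1.67 ± 0.30 (SE) in the authors' deposited table (adjusted p = 2.75e-07). Efnb3, the only listed ephrin of class B, went from an implied 90.7 to 237, at 1.39 ± 0.23 (SE) in the authors' deposited table. Efna3 and Efna5 were lower, at -1.03 ± 0.27 (SE) and -0.68 ± 0.20 (SE) in the authors' deposited table. Of the 4 listed ephrins, Efna5 had the highest implied level per kilobase of exons, 229 in wild type and 143 in the knockout.

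Eph receptors, the largest family of receptor tyrosine kinases, were lower in 5 of the 6 listed genes. Epha3 fell the furthest of those with an implied wild-type mean above 100, from 428 to 67.3, a log2 fold change of -2.67 ± 0.34 (SE) in the authors' deposited table (adjusted p = 8.57e-14). Epha2, the most abundant of the listed Eph receptors by overall mean count per kilobase of exons, fell from an implied 1324 to 605, a log2 fold change of -1.13 ± 0.18 (SE) in the authors' deposited table. Ephb3 stood at -0.84 ± 0.13 (SE), and Ephb6, which lacks kinase activity, at -0.72 ± 0.21 (SE) in the authors' deposited table. Epha7 was the exception and rose from an implied 230 to 606, by 1.40 ± 0.26 (SE) in the authors' deposited table. Epha6 stood at -4.75 ± 1.63 (SE) in the authors' deposited table, but its implied mean was 5.26 in wild type against 0.20 in the knockout, so the fitted size depends on counts near 0. By class, A receptors were 3 lower and 1 higher while A ephrins were 2 lower and 1 higher, and both listed B receptors were lower while the listed B ephrin was higher.

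Of the 5 listed genes of the netrin family as grouped here, 3 were lower (Ntn1, Ntn3 and Unc5b). The 2 higher genes, Rgmb and Draxin, are not netrins. Ntn1, the netrin of the optic disc, went from an implied 5926 in wild type to 2926 in the knockout, a log2 fold change of -1.02 ± 0.12 (SE) in the authors' deposited table (adjusted p = 4.55e-15). Ntn3 stood at -0.90 ± 0.24 (SE) in the authors' deposited table, with an implied 397 and 213. Unc5b, a netrin receptor that mediates repulsion and is also known in blood vessels, fell from an implied 1422 to 290.3, at -2.29 ± 0.14 (SE) in the authors' deposited table (adjusted p = 3.70e-55), the smallest adjusted p of all members. It was the only listed receptor: Dcc, Neo1, Unc5a, Unc5c and Unc5d were not in the table. Rgmb, a lipid-anchored ligand of neogenin and co-receptor for bone morphogenetic proteins, rose by 0.66 ± 0.10 (SE) in the authors' deposited table, from an implied 1017 to 1611, the smallest rise among the members. Draxin, a secreted ligand of DCC, stood at 0.83 ± 0.32 (SE) in the authors' deposited table, with an implied 44.3 and 78.7 (adjusted p = 0.0331). Ntng1, a lipid-anchored netrin relative that binds postsynaptic NGL proteins, stood at -1.30 ± 0.34 (SE) in the authors' deposited table.

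Slits are large secreted proteins that repel axons through Robo receptors. Slit3 went from an implied 1090 in wild type to 545 in the knockout, a log2 fold change of -1.0 ± 0.13 (SE), and Slit2 from 3274 to 2040, at -0.68 ± 0.19 (SE) in the authors' deposited table. Slit1 and the 4 Robo genes were not listed. Srgap3, a GTPase-activating protein of the Slit and Robo pathway that is no member, rose by 0.63 ± 0.16 (SE) in the authors' deposited table.

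Reelin is a secreted matrix protein that guides neuron layering through Vldlr and Lrp8 and the adaptor Dab1. Reln fell from an implied 314 in wild type to 72.1 in the knockout, a log2 fold change of -2.12 ± 0.27 (SE) in the authors' deposited table (adjusted p = 7.23e-14). Dab1 fell from an implied 827 to 418, at -0.99 ± 0.19 (SE) in the authors' deposited table. Both receptors were absent from the table.

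The Nogo receptor limits axon growth in response to myelin proteins. The group as counted here also takes in its homologues and all LINGO genes, so that role is not claimed for every gene in it. All 4 listed genes of 7 were lower, and 3 of them were LINGO genes. Rtn4r, the Nogo receptor itself, was not listed. Lingo1, a co-receptor that joins the Nogo receptor and p75, went from an implied 283 in wild type to 146 in the knockout, at -0.95 ± 0.21 (SE) in the authors' deposited table. Its relatives Lingo3 and Lingo2 stood at -1.24 ± 0.27 (SE) and -2.64 ± 0.72 (SE) in the authors' deposited table, from implied wild-type means of 137 and 38.8 to 58.3 and 6.21 in the knockout. Rtn4rl2, a Nogo receptor homologue that binds the myelin protein Mag, stood at -2.11 ± 0.72 (SE) in the authors' deposited table, from an implied 302 to 70.0, with an interval from -3.52 to -0.70. The partners outside the group moved the same way: Mag stood at -6.43 ± 0.53 (SE) and Ngfr, which encodes p75, at -4.11 ± 0.21 (SE) in the authors' deposited table, while Tnfrsf19, another co-receptor, rose by 0.66 ± 0.12 (SE).

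SLITRK proteins are transmembrane adhesion molecules of neurons that bind receptor phosphatases across the synapse and shape neurite growth. The 5 listed genes had a median log2 fold change of -3.90, the lowest of the families here. Slitrk5, the most abundant of them per kilobase of exons, went from an implied 423 in wild type to 127 in the knockout, at -1.74 ± 0.30 (SE) on the log2 scale in the authors' deposited table. Slitrk6 fell from an implied 149 to 7.68, at -4.28 ± 0.41 (SE) in the authors' deposited table (adjusted p = 4.30e-24). Slitrk4 fell from an implied 104 to 6.96, at -3.90 ± 0.64 (SE) in the authors' deposited table. Slitrk3 and Slitrk1 stood at -4.63 ± 0.82 (SE) and -3.33 ± 0.72 (SE) in the authors' deposited table, with implied means of 35.2 and 24.2 in wild type and only 1.42 and 2.41 in the knockout. Slitrk1, Slitrk5 and Slitrk6 lie within 2.77 Mb of each other on chromosome 14, between 108908800 and 111683141 in GRCm38, while Slitrk3 is on chromosome 3 and Slitrk4 on the X chromosome. Slitrk2 was not listed.

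FLRT proteins are adhesion molecules that bind both UNC5 receptors and latrophilins. Flrt1 went from an implied 71.6 in wild type to 173 in the knockout, a log2 fold change of 1.28 ± 0.25 (SE), and Flrt3 from 294 to 526, at 0.84 ± 0.17 (SE) in the authors' deposited table. Plxdc1, a transmembrane protein with a plexin-like domain that is not a plexin, rose by 1.03 ± 0.19 (SE) in the authors' deposited table, from an implied 193 to 394. None of the 5 collapsin response mediators (Crmp1 and Dpysl2 to Dpysl5), which carry semaphorin signals to microtubules, was listed.

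Listed markers of neurons, the oligodendrocyte lineage and Schwann cells were mostly lower beside the SLITRK, LINGO, Nogo receptor and reelin genes. Of 10 neuron markers 7 were listed, all lower, from -6.62 to -0.72, with a summed implied mean of 17987 in wild type and 8080 in the knockout. Elavl3, Thy1, Elavl4 and Tubb3 stood at -2.85, -1.26, -6.62 and -1.43 on the log2 scale in the authors' deposited table. Most of the neuron sum for wild type came from Thy1, with 12573, and Stmn2, with 3714. The fitted sizes of Elavl4, Nefl and Pou4f1 rest on low counts, with implied wild-type means of only 32.9, 39.6 and 8.30. Oligodendrocyte lineage markers were 8 lower and 1 higher of 10, with a summed implied mean of 27211 and 8489, and Schwann cell markers 8 lower and 1 higher of 10, with 4474 and 1384. Astrocyte markers were 3 higher (Gjb6, Aqp4 and Gfap) and 2 lower (S100b and Fabp7) of 10, with a summed implied mean of 83838 and 130813. Pericyte and smooth muscle markers were 4 lower and 1 higher of 10. Their summed implied mean was 91874 in wild type, above that of the listed astrocyte markers, and 48693 in the knockout. Acta2 and Tagln gave 48110 and 38376 of the wild-type sum. Such sums cover listed genes only and are not scaled by gene length, so they do not rank cell types by abundance. The part of these other cells in the lower guidance genes was not tested.

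**Figure D3:**
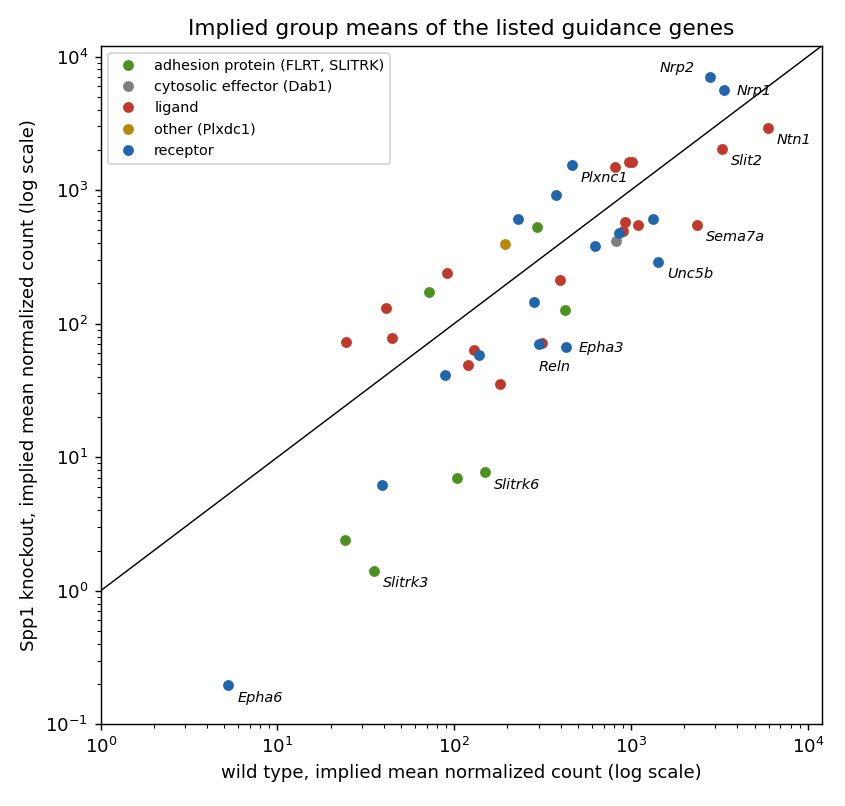
Implied mean normalized count of each of the 43 genes in wild type (x axis, log scale) and Spp1 knockout (y axis, log scale), coloured by role, with the line of equal levels. Ntn1, Slit2, Sema7a and Unc5b lie below the line and Nrp1, Nrp2 and Plxnc1 above it, and the low SLITRK genes and Epha6 lie far below it.

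The order of the most abundant guidance transcripts differed between the genotypes. Levels of different genes were compared as implied mean per kilobase of annotated exons, which carries no error of its own. In wild type Ntn1 had the highest level, 944 per kb, followed by Sema7a with 718, Nrp1 with 344 and Epha2 with 283. In the knockout Nrp2 and Nrp1 led with 594 and 574 per kb, followed by Ntn1 with 466, Sema3b with 311 and Sema4d with 211. Sema7a had 167 per kb in the knockout. Nrp2 and Nrp1 differed by little on this scale in the knockout, and whether they differ beyond the spread of samples could not be tested. These levels cover listed genes only.

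Of 36 textbook ligand and receptor pairs, 8 had both genes listed, 15 the ligand only, 5 the receptor only and 8 neither. Ephrins and Eph receptors were not among these pairs, so the counts and directions below leave that family out. Opposite changes were seen for Sema7a and Plxnc1, with 95% intervals of -2.51 to -1.70 and 1.26 to 2.20, for Flrt3 and Unc5b, and for Flrt3 and the latrophilin Adgrl3, which fell by 0.91 ± 0.20 (SE) in the authors' deposited table. Parallel changes were seen for Ntn1 and Unc5b, both lower, for Sema5a and Plxnb3, both lower, for Mag and Rtn4rl2, both lower, and for Sema3b with Nrp1 and with Nrp2, all higher. The interval of Unc5b, -2.57 to -2.01, lay wholly below that of Ntn1, -1.26 to -0.78. These pairs share genes and samples and are a description.

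**Figure D4:**
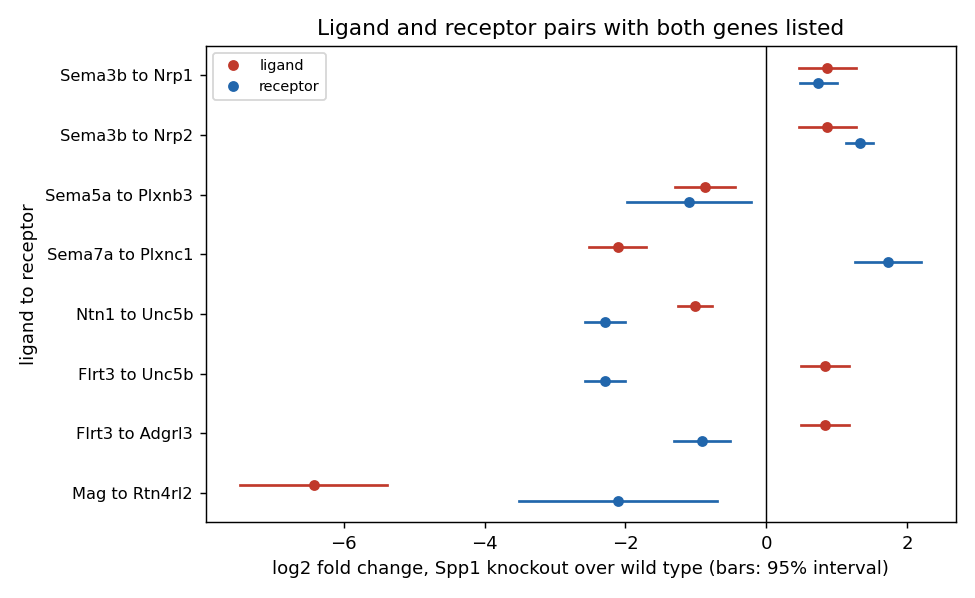
Log2 fold change, knockout over wild type (x axis), of the ligand and the receptor of each pair with both genes listed (y axis), with 95% intervals from the deposited standard errors. Ephrins and Eph receptors were not paired. Sema7a at -2.11 and Plxnc1 at 1.73 lie on opposite sides of 0, as do Flrt3 with Unc5b and with Adgrl3.

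Among 80 co-receptors, partners and downstream genes of guidance signalling outside the name pattern, 21 were listed, 17 lower and 4 higher, with a median log2 fold change of -0.72, against 45.1% lower over all rows. Tenm3, a teneurin that binds latrophilins, stood at -1.01 ± 0.16 (SE), Adgrl2, a latrophilin, at -0.89 ± 0.11 (SE), and Nrcam, an adhesion molecule that joins neuropilin complexes, at -0.67 ± 0.14 (SE) in the authors' deposited table. The growth cone gene Gap43 stood at -1.03 ± 0.18 (SE), the tubulin regulator Stmn2 at -0.72 ± 0.14 (SE), and Mical2, an actin-oxidizing enzyme of the family that acts below plexins, at -0.62 ± 0.14 (SE) in the authors' deposited table. Serpinf1, the growth factor that binds Plxdc1, fell by 0.82 ± 0.11 (SE) in the authors' deposited table. Kdr, Tnfrsf19 and Srgap3 were among the higher genes. Gap43, Stmn2, Tubb3 and Dcx are mostly neuronal, Mag is among the oligodendrocyte lineage markers used here and Ngfr among the Schwann cell markers.

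The labels do not give the sex of the pups, and the Y-linked genes Ddx3y, Eif2s3y, Uty and Kdm5d stood at 13.26, 11.71, 6.01 and 5.91 on the log2 scale in the authors' deposited table, with implied wild-type means of at most 15. Sex and genotype therefore cannot be told apart for any gene here, nor can strain background. The X-linked gene Xist, looked up beside the Y-linked ones, was not listed, and nothing is read from its absence. Plxnb3 and Slitrk4, both lower, are the 2 members on the X chromosome. Without them 26 of 41 members were lower.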

How the data were processed

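Total RNA of 8 samples of cultured astrocytes was sequenced. CASAVA 1.8, STAR 2.7, DESeq2 1.30.1 and the build GRCm38 appear in the submitters' processing notes with no role. The annotation, the counting and the filters are not stated there. Per the file headers, the authors deposited for each gene a log2 fold change and standard error, a Wald statistic (a score), raw and adjusted p-values, and a mean normalized count, which is a signal pooled over samples. The table holds 3624 rows and no column of per-sample values, so the planned count model was replaced by the plan for a table of comparisons: the deposited log2 values and adjusted p-values were counted as they stand. Implied means and 95% intervals (normal quantile times the standard error) were computed with pandas 2.3.3 and scipy 1.17.1, and the code was tested on simulated data.

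Members were taken by gene name and placed in families and roles by hand. The members and the lists of partners and cell markers were chosen with earlier results of these data known. Every listed member is named, with implied means for up to 4 per family with the largest change, and further ones added after values were seen. Partners are named up to 15 by adjusted p and markers up to 4 per list. The neuron markers Stmn2, Nefl and Pou4f1 and the astrocyte marker Gfap are named beyond that limit. Dcx, outside the 15, was named after values were seen, and some results are not reported here. Genome positions and exon lengths are from GENCODE M21, promoters from RefSeq. Alternatives kept only rows past a stricter fold change, mean count, adjusted p or interval, or only the classical families.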

Additional observations from a re-analysis of the deposited data

How the results depend on the processing

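No paired analysis was possible because the table holds no values per sample, and for the same reason the planned fits with other size factors, without a filter and without each replicate were not run. Stricter limits shortened the list and left more members lower than higher in all 6 alternatives, from 57.1% to 71.4% lower. Over all rows, the lower share was 38.8% at a change of 1 or more, 45.4% at a mean count of 100 or more, 41.0% at the stricter adjusted p and 38.5% at the interval limit, where members gave 69.0%, 60.0%, 60.6% and 71.4%. When changes under 1 on the log2 scale were dropped, 9 members were higher, ligands were 3 higher and 7 lower, and the median was -1.24. With the 95% interval wholly beyond 0.58, 8 members were higher, ligands were 2 higher and 6 lower, and the median was -1.27. When mean counts under 100 were dropped, 18 members were lower, 4 ligands higher and 7 receptors lower. With an adjusted p of at most 0.001, 6 receptors were lower, against 5 higher. With the semaphorin, ephrin, Slit and netrin families alone, 16 members and 7 receptors were lower and the median was -0.70. Each of these holds fewer genes by construction. Leaving out X-linked members, chosen after seeing the data, gave 26 lower and 15 higher.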

Other observations

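The 43 members lie on 17 chromosomes. Reln and Slit2 are the only ones on chromosome 5 with Spp1, 82.1 Mb and 56.1 Mb from it, so no listed guidance gene lies close to the deleted locus. The member promoters in the RefSeq table had a median GC content of 66.8% (36 genes), against 52.7% over all 27025 promoters.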
